A study of Mus musculus with 6 samples.

Results

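The genes described here mark the first steps from multipotent progenitors to the B lineage: Flt3, Il7r, Notch1, Dntt, Rag1, Ebf1, Pax5, Ly6d, Cd79a and Cd79b. They were taken by symbol, 10 of the 24062 rows of the deposited count table, and all 10 passed the filter on low counts that left 15742 genes for testing. RNA sequencing was done on bone marrow cells of C57BL/6 mice sorted for the receptor Kit (lineage-negative as well, in the series' own wording), with 1 mouse per library. The KO group was 3 mice with floxed Ints11 alleles that also carried Mx1Cre, and the WT group was 3 littermates. INTS11 is the endonuclease of Integrator, a complex that cleaves nascent transcripts of RNA polymerase II. The sort took place 4 days after injection of poly(I:C), a double-stranded RNA mimic that induces interferon and thereby the Mx1 promoter that drives Cre. That promoter is not limited to blood cells. The sources used here do not say whether WT mice carried Cre, how old the mice were or what share of cells had lost Ints11.

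Libraries held 124074531 to 166860739 counts. Cpsf3l, the older symbol of Ints11 in the table, stood at 73.8, 92.3 and 78.9 CPM (the read count over the TMM-scaled total of its library) in WT_341, WT_343 and WT_344 and at 64.3, 58.3 and 60.2 CPM in KO_339, KO_340 and KO_345 (log2 change -0.42, adjusted p = 0.0174, edgeR quasi-likelihood test), so the groups did not overlap, but reads outside the floxed part also count. Kit, the sorted marker, was present at 199 to 238 CPM in the 6 libraries. Read by Xist and Y-linked counts, WT_341, KO_339 and KO_340 were male and WT_343, WT_344 and KO_345 female. In WT_341 mature neutrophil markers and the genes Il7r, Dntt, Rag1, Ebf1, Pax5 and Cd79a were well above the other WT libraries, which touches most results below.

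B cells arise in the marrow from progenitors that carry the cytokine receptor FLT3 and later the receptor for interleukin 7. Such progenitors switch on the recombinase RAG and the polymerase TdT to assemble antibody genes, and the factors EBF1 and PAX5 then fix the B cell fate and turn on the signalling chains of the B cell receptor. Notch1 signalling acts on the same progenitors and steers them to the T cell fate.

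On GRCm38 the receptor genes lie at chr5:147330741-147400489 (Flt3, reverse strand), chr15:9505788-9530176 (Il7r, reverse) and chr2:26457903-26516663 (Notch1, reverse). Dntt lies at chr19:41029275-41059525 (forward) and Rag1 at chr2:101638282-101649501 (reverse). The factor genes lie at chr11:44617317-45008091 (Ebf1, forward) and chr4:44524757-44710487 (Pax5, reverse). The surface genes lie at chr15:74762056-74763620 (Ly6d, reverse), chr7:24897381-24902197 (Cd79a, forward) and chr11:106311341-106314762 (Cd79b, reverse).

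Of the 10 genes, 2 rose in KO libraries, Ly6d and Notch1, 0 fell and 8 did not pass (edgeR's quasi-likelihood test, adjusted p under 0.05). The background over all tested genes was 16.0% higher and 19.9% lower, and a count of 2 in 10 is close to it. At an unadjusted p of 0.05 the counts were likewise 2 higher and 0 lower. The share of all genes at that unadjusted threshold was not counted. DESeq2 and limma-voom each called 2 members higher and 0 lower after adjustment. Over all tested genes DESeq2 called 3010 higher and 3605 lower, and limma-voom 2702 and 3068. Ly6d and Notch1 were also the only members whose KO libraries all lay above all WT libraries, as they did for 25.6% of all tested genes. No member had every KO library below every WT library, against 28.4% of tested genes. The median log2 change of the 10 genes was 0.51, beside 0.01 for all tested genes. Upper-quartile factors and library totals moved the median of all genes to 0.15 and 0.11 and the calls from 2520 higher and 3139 lower to 3458 and 1931 and to 3151 and 2212, but left 2 members higher and 0 lower. In bulk RNA a lower level can reflect fewer cells of a type or less RNA per cell, and these cannot be told apart here.

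**Figure D1:**
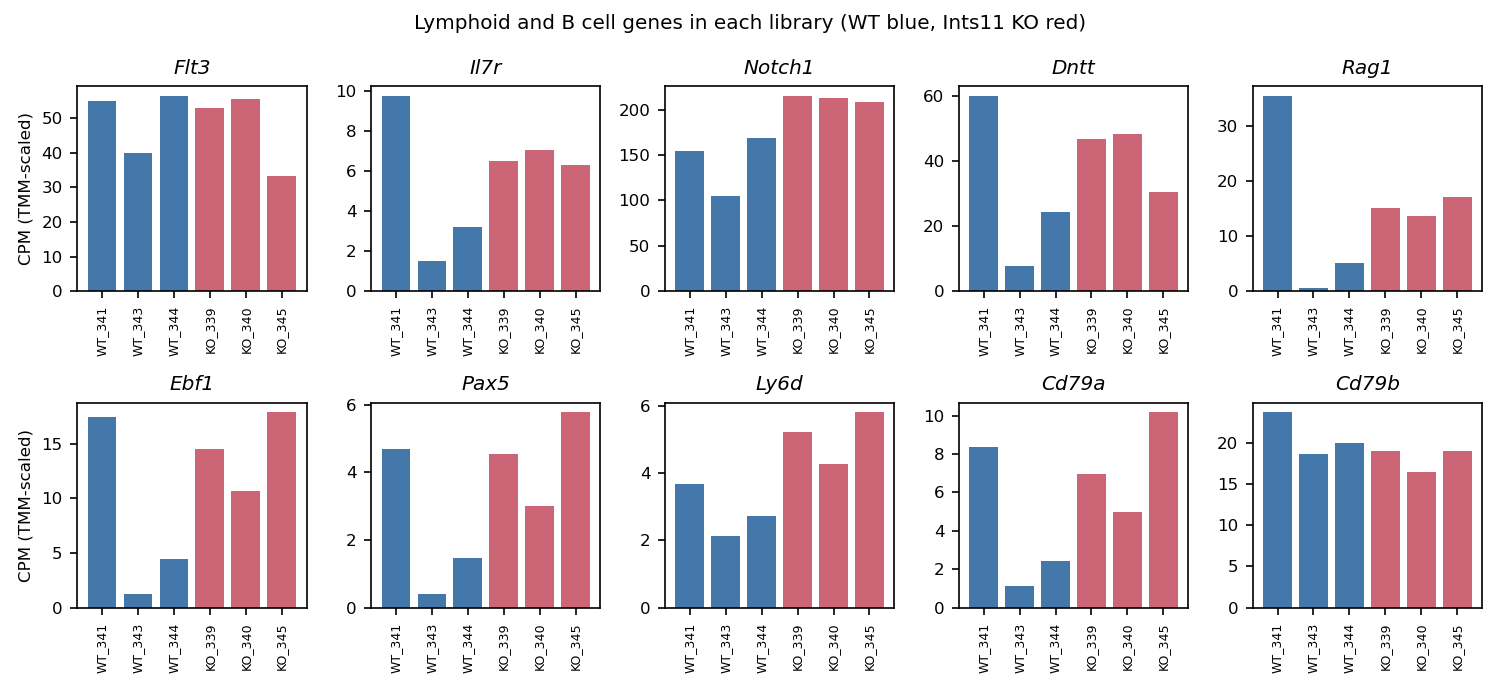
Level of each gene in CPM (y axis, TMM-scaled, from 0) in the 6 libraries (x axis, WT in blue, KO in red, 1 bar per mouse). Ly6d and Notch1 are higher in all 3 KO libraries than in any WT library, while Il7r, Dntt, Rag1, Ebf1, Pax5 and Cd79a are high in WT_341 and low in WT_343 and WT_344.

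Among the receptors, Flt3, the tyrosine kinase that marks lymphoid-primed progenitors, had 54.9, 39.98 and 56.4 CPM in WT_341, WT_343 and WT_344 and 52.8, 55.5 and 33.3 CPM in KO_339, KO_340 and KO_345. The groups overlapped, with the lowest level in KO_345 (log2 change -0.10 ± 0.21 SE, adjusted p = 0.746, edgeR). The direction of this value turned to 0.04 with upper-quartile factors and to 0.13 without KO_345. Il7r, the alpha chain of the interleukin 7 receptor, had 9.76, 1.51 and 3.20 CPM in the WT libraries and 6.48, 7.06 and 6.29 CPM in the KO libraries. All 3 KO values fell inside the WT range, between a high WT_341 and 2 low WT libraries (log2 change 0.46 ± 0.58 SE, adjusted p = 0.556, edgeR).

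Notch1, the receptor of the T lineage signal, had 155, 105 and 169 CPM in the WT libraries, with 215, 213 and 209 CPM in the KO libraries. It rose 1.48-fold (log2 change 0.57 ± 0.16 SE, adjusted p = 0.0316, edgeR), from 143 ± 33.7 to 212 ± 3.34 CPM (SD, n = 3 each). The KO libraries were nearly level with each other and the WT libraries spread 1.61-fold. The call was lost in 6 of 14 alternatives, namely without KO_339 (adjusted p = 0.0974), KO_340 (0.0820) or KO_345 (0.0860), with no low-count filter (0.0506), with sex as a covariate (0.0560) and with the level of mature neutrophil markers as a covariate (0.479). The adjusted p ranged from 0.00584 to 0.479 over these 14, all from the fits named in the processing notes.

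Among the genes of antibody gene assembly, Rag1 had the widest spread between WT mice of the 10 genes. Dntt, which encodes TdT, the polymerase that adds untemplated bases at the joints, had 60.2, 7.61 and 24.5 CPM in the WT libraries and 46.7, 48.4 and 30.7 CPM in the KO libraries. Rag1, the catalytic subunit of the recombinase, had 35.5, 0.664 and 5.17 CPM in the WT libraries and 15.2, 13.7 and 17.1 CPM in the KO libraries. The WT libraries thus spanned 53.5-fold for Rag1, from 105 reads in WT_343 to 4379 in WT_341, and the KO libraries 1.25-fold. Neither gene passed the test (log2 change 0.45 ± 0.62 SE, adjusted p = 0.589 for Dntt and 0.16 ± 1.06 SE, adjusted p = 0.920 for Rag1, edgeR), and for both genes all 3 KO values lay within the WT range. The estimate depended on the method: limma-voom gave log2 changes of 1.76 for Rag1 and 0.93 for Dntt, likewise without a call. The direction for Dntt turned to -0.02 without WT_343, and for Rag1 to -0.41 without WT_343 and -0.24 without WT_344. Rag1 shares 80 exon bases with B230118H07Rik on its own strand, whose reads (2777, 4422 and 3566 in WT, 3089, 2795 and 2463 in KO libraries) did not follow those of Rag1.

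The factors of B cell commitment showed the same order within the WT libraries, while their highest level was in KO_345. Ebf1, the factor that opens the B lineage program, had 17.5, 1.23 and 4.44 CPM in the WT libraries and 14.6, 10.7 and 17.9 CPM in the KO libraries. Pax5, which holds the B cell fate, had 4.70, 0.399 and 1.46 CPM in the WT libraries and 4.54, 3.01 and 5.78 CPM in the KO libraries. In both, WT_341 was among the 2 highest libraries, and WT_343 and WT_344 were below all KO libraries. The log2 changes were 0.90 ± 0.78 (SE) for Ebf1 (adjusted p = 0.390) and 1.03 ± 0.74 for Pax5 (adjusted p = 0.304, edgeR), and neither passed. On the strand opposite to Pax5 the annotation holds 5730488B01Rik, which shares 636 exon bases with it. This transcript had 84, 1 and 16 reads in the WT and 189, 141 and 189 in the KO libraries, and since no source used here states the strand setting, reads of both cannot be told apart.

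Of the surface genes, Ly6d, an anchored protein that marks the step at which common lymphoid progenitors become biased to B cells, had 3.68, 2.14 and 2.72 CPM in the WT libraries and 5.21, 4.26 and 5.80 CPM in the KO libraries. It rose 1.79-fold (log2 change 0.84 ± 0.24 SE, adjusted p = 0.0301, edgeR), from 2.85 ± 0.780 to 5.09 ± 0.779 CPM (SD, n = 3 each), with no overlap of the groups. The call was lost in 6 of 14 alternatives, without WT_343 (adjusted p = 0.0709), WT_344 (0.0901), KO_339 (0.100), KO_340 (0.0513) or KO_345 (0.105) and with the neutrophil covariate (0.385), within a range from 0.00335 to 0.385. Markers of plasmacytoid dendritic cells, whose precursors also carry Ly6d, moved both ways (5 of 15 higher, 5 lower, median log2 change 0.49), beside 16.0% and 19.9% of all tested genes. The counts were 1 and 2 without KO_339, 4 and 2 without KO_340, 1 and 3 without KO_345, 3 and 4 without WT_341, 4 and 3 without WT_343, and 1 and 4 without WT_344. Of the 15 markers 3 are also in another list. Among them is Irf8, which fell and is also counted with the lymphoid factors and the myeloid progenitor markers. The summed level of the dendritic cell markers, 1488 to 1860 CPM in WT and 1101 to 1187 CPM in KO libraries, was mostly that of Ly6c2 (1014 to 1374 and 788 to 860 CPM). The mean log2 CPM of the 15 markers was 2.69, 3.00 and 2.75 in WT and 3.00, 2.72 and 3.37 in KO libraries, which overlap. Siglech, a defining gene of those cells named after its values were seen, had 1.41, 3.29 and 1.31 CPM in WT and 2.67, 2.90 and 5.54 CPM in KO libraries and did not pass (adjusted p = 0.147, edgeR).

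Cd79a and Cd79b encode the paired signalling chains of the B cell receptor. Cd79a had 8.38, 1.11 and 2.45 CPM in the WT libraries and 6.95, 4.97 and 10.2 CPM in the KO libraries, again with WT_341 among the KO values and the other WT libraries below them (log2 change 0.89 ± 0.66 SE, adjusted p = 0.317, edgeR). Cd79b had 23.7, 18.6 and 19.96 CPM in the WT libraries and 18.9, 16.5 and 18.99 CPM in the KO libraries (log2 change -0.20 ± 0.12 SE, adjusted p = 0.233, edgeR). The groups overlapped for Cd79b, and its WT libraries differed only 1.27-fold, against 7.52-fold for Cd79a. Reads of Cd79b per read of Cd79a were therefore 2.83 (WT_341), 16.7 (WT_343) and 8.15 (WT_344), beside 2.73, 3.31 and 1.87 in KO_339, KO_340 and KO_345.

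The order and spread of the WT mice recurred across these genes. WT_341 exceeded WT_344 and WT_344 exceeded WT_343 for 8 of the 10 genes, all but Flt3 and Notch1, an order found in 21.4% of all tested genes. In limma-voom the log2 changes of Il7r (0.94), Ebf1 (1.71), Pax5 (1.70) and Cd79a (1.39) were also over 1.5 times those of edgeR, again with none called. The median SD of log2 CPM was 1.40 in WT and 0.296 in KO libraries over the 10 genes, and 0.210 and 0.116 over all tested genes. The SD was larger in WT than in KO libraries for 9 of the 10 genes and for 72.4% of all tested genes. Summed over Il7r, Dntt, Rag1, Ebf1, Pax5 and Cd79a, a set formed after the values were seen, the WT levels were 136 CPM (WT_341), 12.5 (WT_343) and 41.2 (WT_344), beside 94.5, 87.8 and 87.9 CPM in KO_339, KO_340 and KO_345.

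WT_341 had the highest WT level for 8 of the 10 genes. Leaving it out thus raises their changes by construction, so the calls of that fit lend no support to a rise. Leaving out any other single library gave 0 or 1 members higher. Without WT_341, 6 of the 10 genes were called higher in KO libraries and 0 lower, where 22.1% of all genes tested in that fit were called higher. These were Cd79a (4.11-fold, adjusted p = 0.0162), Pax5 (4.76-fold, 0.0323), Ebf1 (5.04-fold, 0.0343), Il7r (2.79-fold, 0.00776), Ly6d (2.08-fold, 0.00435) and Notch1 (1.54-fold, 0.0455), each by edgeR's quasi-likelihood test with WT_343 and WT_344 as the only WT libraries. Rag1 was 5.23-fold and Dntt 2.60-fold higher in that fit without passing (adjusted p = 0.103 and 0.119, edgeR). Flt3 (log2 change -0.04) and Cd79b (-0.10) did not pass with or without WT_341.

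**Figure D2:**
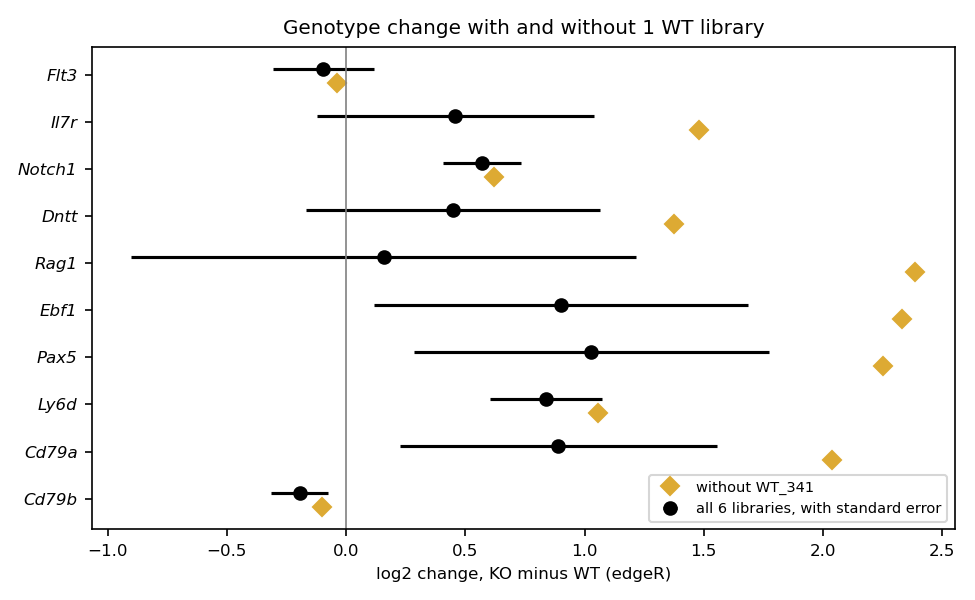
Log2 change, KO minus WT, of each gene (x axis) from the fit on all 6 libraries (black, bars are the standard error) and from the fit without WT_341 (yellow). Il7r, Dntt, Rag1, Ebf1, Pax5 and Cd79a move right by about 1 or more when WT_341 is left out, while Flt3, Notch1, Ly6d and Cd79b stay near their first value.

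WT_341 was also the only male WT mouse, so within WT the sex cannot be told apart from that library. In a fit with a genotype by sex term, chosen after the data were seen, the log2 change of Rag1 was -1.30 in males and 2.56 in females, that of Ebf1 -0.47 and 2.66, and that of Pax5 -0.32 and 2.64. Cd79a changed by -0.49 in males and 2.51 in females, Il7r by -0.53 and 1.42 and Dntt by -0.34 and 0.94. Ly6d (0.36 and 1.26) and Notch1 (0.47 and 0.61) were positive in both sexes. The male values set KO_339 and KO_340 against WT_341 alone, and the female values set KO_345 alone against WT_343 and WT_344. The fit had 2 residual degrees of freedom. With these single libraries it cannot judge a difference between the sexes, so only effect sizes are given.

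Markers of mature neutrophils, which a Kit sort should leave out, followed a similar order. Their summed level over 15 genes was 37291 CPM (WT_341), 12073 (WT_343) and 22140 (WT_344), beside 58648, 45140 and 44855 CPM in KO_339, KO_340 and KO_345. Their mean log2 CPM was 9.32, 7.79 and 8.58 in WT and 9.83, 9.50 and 9.53 in KO libraries. Of these 15 markers 6 were called higher and 1 lower, beside 16.0% and 19.9% of all tested genes, and 0 were at 0 in any library. The count higher was 0 without KO_339, KO_340, KO_345 or WT_344 and with no low-count filter, 14 without WT_341 and 10 in limma-voom, with 1 lower in each. With their mean log2 level as a covariate 0 of the 10 genes were called in either direction (edgeR, adjusted). Over all tested genes that fit called 556 higher and 949 lower. At an unadjusted p of 0.05, 0 of the 10 genes were higher and 4 lower, but the share of all genes at that threshold was not counted. The log2 changes of Il7r, Dntt, Rag1, Ebf1, Pax5 and Cd79a turned to between -0.51 and -2.04. The covariate is higher in every KO library than in the WT libraries and so overlaps with genotype. The part of these cells in the levels of the B lineage genes was not tested.

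**Figure D3:**
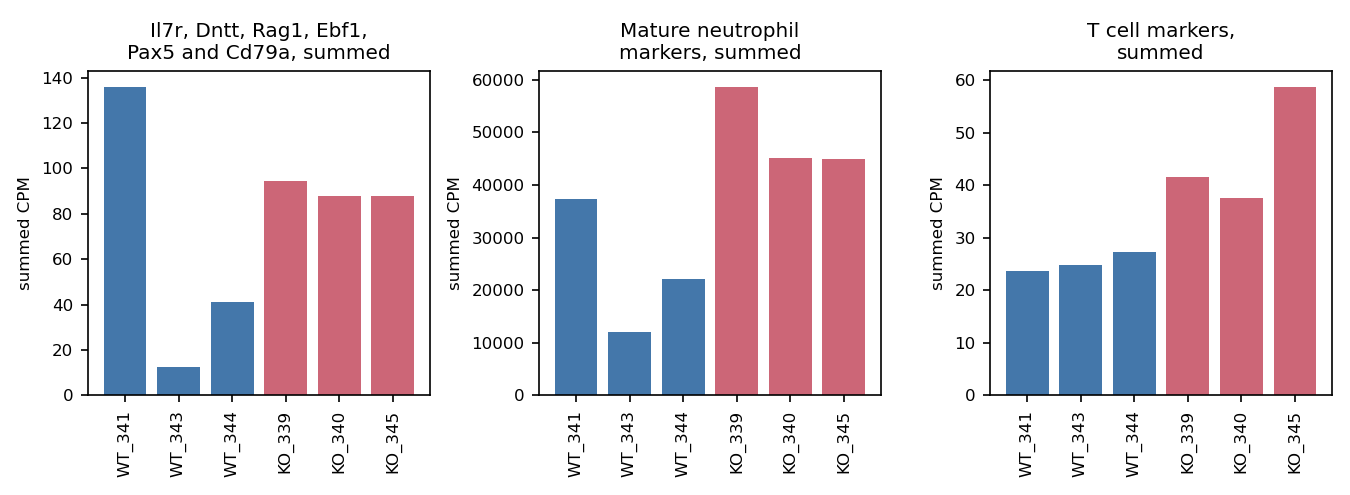
Summed CPM (y axes, from 0) of Il7r, Dntt, Rag1, Ebf1, Pax5 and Cd79a, of 15 mature neutrophil markers and of 15 T cell markers in each library (WT in blue, KO in red). In the WT libraries the first and second sums are highest in WT_341 and lowest in WT_343, while the T cell sum is 23.7 to 27.2 CPM in WT and 37.6 to 58.8 CPM in KO libraries.

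Between members, likeness was measured as the Euclidean distance of log2 CPM profiles over the 6 libraries, each centred on its own mean, which describes these libraries only. Ebf1 and Pax5 were the closest pair (0.279), followed by Il7r and Dntt (0.609), Ly6d and Notch1 (0.613) and Pax5 and Cd79a (0.667). Rag1 and Cd79b were the farthest apart (4.39). Ratios within the B lineage genes also moved: Rag1 gave 4.24 (WT_341), 0.597 (WT_343) and 2.11 (WT_344) reads per read of Cd79a, beside 2.19, 2.76 and 1.68 in the KO libraries. Pax5 stayed closer to Cd79a, with 0.561, 0.358 and 0.596 reads in WT and 0.653, 0.606 and 0.568 in KO libraries.

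Among 11767 other named genes with a mean of at least 1 CPM, the profiles closest to Cd79a included those of Blnk (distance 0.491) and Pou2af1 (0.515), where the median distance was 2.85. Blnk, the adaptor below the pre-B receptor, had 13.7, 2.15 and 4.00 CPM in WT and 9.51, 7.10 and 12.8 CPM in KO libraries. Pou2af1, a transcriptional coactivator of B cells, had 10.2, 1.40 and 2.83 CPM in WT and 6.03, 5.14 and 9.01 CPM in KO libraries. The surrogate light chain genes Vpreb1 (9.59, 0.532 and 1.63 CPM in WT, 7.01, 3.85 and 8.24 CPM in KO) and Igll1 (14.2, 0.981 and 2.65 CPM in WT, 11.96, 5.96 and 11.6 CPM in KO), named after their values were seen, repeated the order. The WT_341, WT_343 and WT_344 levels of these 4 genes were thus high, lowest and low, and none passed the test of all 6 libraries (adjusted p = 0.488 to 0.579, edgeR). Closest to Flt3 were Klhl3 (0.343), Rnls (0.344) and AF357399 (0.346), with a median distance of 0.891.

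Levels of different genes were compared per kilobase of merged exons. In WT libraries Cd79b led with 14.5 ± 1.82 CPM per kb, then Dntt with 13.4 ± 11.7, Notch1 with 10.04 ± 2.37 and Flt3 with 8.17 ± 1.47 (SD, n = 3). Neighbours among these 4 were not separated by their SDs, and Flt3 stood above Ly6d (3.83 ± 1.05) by more than both SDs. Cd79a (2.73), Rag1 (2.09), Il7r (1.03), Ebf1 (0.791) and Pax5 (0.247) followed, with no neighbours separated. In KO libraries the order was Dntt (18.3 ± 4.27), Notch1 (14.9 ± 0.234), Cd79b (12.7 ± 1.01), Flt3 (7.64 ± 1.96), Ly6d (6.84 ± 1.05), Cd79a (5.05 ± 1.80), Rag1 (2.32 ± 0.257), Ebf1 (1.47 ± 0.370), Il7r (1.42 ± 0.0865) and Pax5 (0.502 ± 0.156) CPM per kb. There the neighbours Dntt and Notch1, Flt3 and Ly6d, Ly6d and Cd79a, and Ebf1 and Il7r did not differ beyond their SDs.

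RefSeq promoter windows (GRCm38.p6, 250 bases before to 50 after the start) were matched for 8 members, in 9 windows. Ly6d and Cd79b were not matched. The parts upstream of the start are printed for Cd79a and Rag1, which share the order of WT libraries, and for Notch1, which rose. For Notch1 the RefSeq start used lies inside the gene span given above, not at its end. Capitals mark the E-box of E proteins, CACCTG read on either strand, or the core of the sites of RBPJ (the Notch effector) and of Ikaros, TGGGAA read on either strand.
Cd79a, chr7:24897247-24897496, forward strand: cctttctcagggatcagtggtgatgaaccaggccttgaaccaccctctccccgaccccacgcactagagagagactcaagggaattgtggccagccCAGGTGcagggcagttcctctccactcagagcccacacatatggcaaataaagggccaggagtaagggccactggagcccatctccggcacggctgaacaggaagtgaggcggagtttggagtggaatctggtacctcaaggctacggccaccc
Rag1, chr2:101649533-101649782, reverse strand: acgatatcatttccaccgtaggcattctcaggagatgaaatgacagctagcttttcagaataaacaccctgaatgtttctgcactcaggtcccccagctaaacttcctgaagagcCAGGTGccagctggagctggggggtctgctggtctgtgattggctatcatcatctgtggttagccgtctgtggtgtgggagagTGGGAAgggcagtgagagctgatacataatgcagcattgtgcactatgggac
Notch1, chr2:26503823-26504072, reverse strand: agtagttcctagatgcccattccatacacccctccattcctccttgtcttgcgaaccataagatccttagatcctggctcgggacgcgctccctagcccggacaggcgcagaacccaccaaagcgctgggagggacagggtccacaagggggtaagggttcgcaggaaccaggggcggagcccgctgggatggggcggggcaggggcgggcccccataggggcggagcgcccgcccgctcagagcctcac

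The E-box begins at position -154 from the start in Cd79a and at -135 in Rag1, and the TGGGAA core at -52 in Rag1. Over both strands, the E-box was found in 2 of the 8 genes (2 of 9 windows) and in 20.2% of all 32851 promoter windows. TGGGAA was found in Rag1 and in 1 of the windows of Ebf1 (2 of 8 genes, 2 of 9 windows) and in 25.6% of all windows. The exact letters CCCNNGGG, taken as the EBF1 core, were found in 0 of the 8 genes (0 of 9 windows) and in 13.7% of all windows. Variants of these letters were not searched, so the 0 does not show that EBF1 sites are absent. The motifs found do not overlap each other, and a match describes these letters only.

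Around the receptors, genes of FLT3 and interleukin 7 signalling were 5 higher and 1 lower of 17 tested, with a median log2 change of 0.14. Over all tested genes 16.0% were higher and 19.9% lower. The feedback inhibitor gene Socs1 had 1.99, 1.89 and 1.76 CPM in WT and 4.30, 5.18 and 4.00 CPM in KO libraries and rose 2.39-fold (adjusted p = 0.00408, edgeR). Its relative Socs2 rose 2.37-fold and Cish 2.11-fold, and Stat5b, a transcription factor of the pathway, 1.19-fold (adjusted p = 0.0123, 0.0345 and 0.0262, edgeR). Socs1 was called in all 14 alternatives, and the calls of Socs2, Stat5b and Cish were lost in 2, 5 and 7. The counts higher and lower were 1 and 0 without KO_339, 3 and 0 without KO_340, 2 and 0 without KO_345, 4 and 4 without WT_341, and 3 and 0 without WT_343 or WT_344. They were 2 and 0 with the neutrophil covariate and 6 and 0 with upper-quartile factors or library totals.

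Of 40 tested Notch pathway genes besides Notch1, 11 rose and 5 fell, with a median of 0.20, where 16.0% of all tested genes rose and 19.9% fell. The ligand genes Jag2 (from 1.33, 1.52 and 2.03 to 5.84, 4.65 and 5.54 CPM, 3.28-fold, adjusted p = 0.00329) and Jag1 (2.34-fold, 0.00501) rose. Ncstn, a subunit of the gamma-secretase that releases the Notch intracellular part, fell from 115, 116 and 116 to 85.5, 86.6 and 90.1 CPM (log2 change -0.40, adjusted p = 0.00527), and the Deltex gene Dtx4 fell from 180 to 114 CPM (log2 change -0.65, adjusted p = 0.0113, all by edgeR). Among Notch targets, singled out after their values were seen, Hes1, Hes5, Nrarp and Dtx1 rose, each with a KO mean of 2.31 CPM or less, and their calls were lost in 7, 6, 4 and 5 of 14 alternatives. The targets Hey1 and Heyl did not pass (log2 change 0.22 and 0.32, adjusted p = 0.827 and 0.729, edgeR). Upper-quartile factors gave 14 higher and 2 lower and library totals 12 and 2. Leaving out 1 library gave 3 and 2 without KO_339, 6 and 2 without KO_340, 4 and 2 without KO_345, 12 and 5 without WT_341, 6 and 4 without WT_343 and 3 and 2 without WT_344. The neutrophil covariate left 2 and 1.

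Lymphoid transcription factors were 7 higher and 2 lower of 26, with a median of 0.38, beside 16.0% higher and 19.9% lower of all tested genes. Irf8, which drives monocyte and dendritic fates and acts in B cells, fell from 102, 77.9 and 118 to 37.3, 38.6 and 45.1 CPM (log2 change -1.30, adjusted p = 0.00327, edgeR). Id2, an inhibitor of E proteins, rose 1.81-fold and Ikzf2, an Ikaros relative, 1.92-fold (adjusted p = 0.00494 and 0.00380, edgeR), while Zeb2 fell from 174 to 118 CPM (log2 change -0.56, adjusted p = 0.0117, edgeR). Id2, Ikzf2 and Irf8 passed in all 14 alternatives and Zeb2 in 12. The counts higher and lower were 14 and 4 without WT_341, 4 and 2 without WT_343, 3 and 2 without WT_344, 2 and 1 without KO_339, 3 and 2 without KO_340 and 4 and 2 without KO_345, and 12 and 2 with upper-quartile factors and 2 and 1 with the neutrophil covariate.

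Genes of V(D)J recombination and end joining other than Rag1 and Dntt were 0 higher and 7 lower of 14, with a median of -0.35. The shares over all tested genes were 16.0% higher and 19.9% lower. Most factors of this list act in the repair of DNA breaks in all cells. Prkdc, the DNA-dependent protein kinase, fell from 160, 160 and 152 to 95.2, 97.6 and 93.6 CPM (log2 change -0.72, adjusted p = 0.00144). Xrcc6 and Xrcc5, the Ku subunits, fell by 0.58 and 0.50 and the kinase gene Atm by 0.66 on the log2 scale (adjusted p = 0.00332, 0.0150 and 0.00380, edgeR). Rag2, the partner of Rag1, named after its values were seen, had 4.70, 0.715 and 1.97 CPM in WT and 2.75, 2.69 and 2.02 CPM in KO libraries and did not pass (adjusted p = 0.983, edgeR). Calls of Prkdc, Xrcc6 and Atm held in all 14 alternatives, and leaving out 1 library gave 4 lower without KO_339, 3 without KO_340, 4 without KO_345, 7 (and 2 higher) without WT_341, 6 without WT_343 and 4 without WT_344. Upper-quartile factors gave 5 lower and the neutrophil covariate 4.

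Of 27 genes of the pre-B receptor and of B cell surface and signalling, 3 rose and 2 fell. The median was 0.54, and over all tested genes 16.0% rose and 19.9% fell. Cr2, complement receptor 2, rose 4.09-fold from 1.39, 0.607 and 0.660 to 3.47, 3.84 and 3.52 CPM (adjusted p = 0.00628), and Bst1, an ectoenzyme of early B cells and myeloid cells, rose 1.92-fold (0.0307). The kinase gene Btk fell from 125 to 93.4 CPM (log2 change -0.42, adjusted p = 0.00655) and the tetraspanin gene Cd37 from 93.9 to 74.2 CPM (-0.34, 0.0297, all by edgeR). Cd37 was not called with upper-quartile factors or library totals, which gave 5 higher and 1 lower for the list. Without WT_341 the counts were 10 higher and 2 lower, without KO_340 they were 5 and 1, and without KO_339, KO_345 or WT_344 1 and 1, without WT_343 1 and 2, as with the neutrophil covariate.

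**Figure D4:**
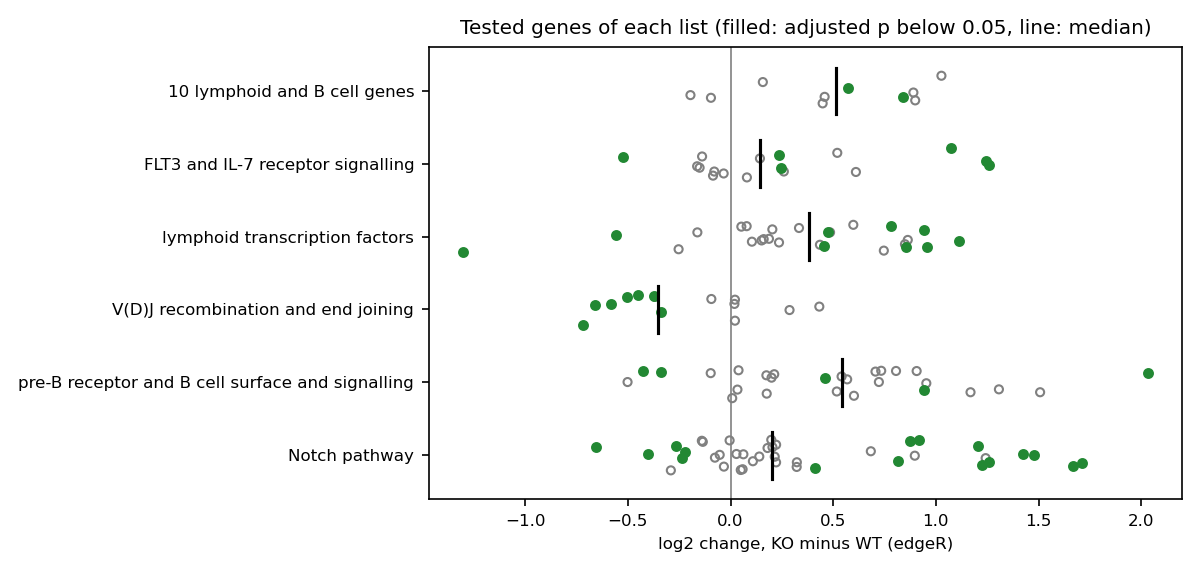
Log2 change, KO minus WT, of every tested gene (x axis) in the 10 lymphoid and B cell genes and 5 lists of pathway genes (rows); filled points passed an adjusted p of 0.05 and the line is the median of the list. The V(D)J and end joining list lies lowest, with a median of -0.35, and the 10 genes have 2 filled points, both above 0.

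T cell markers, set beside Notch1, were 8 higher and 0 lower of 15, with a median log2 change of 1.16. For this and the marker counts that follow, the shares over all tested genes were 16.0% higher and 19.9% lower. The summed level of the T cell markers was 23.7, 24.9 and 27.2 CPM in WT and 41.6, 37.6 and 58.8 CPM in KO libraries. Gata3, a Notch-responsive factor of early T cells, had a mean of 0.610 CPM in WT and 1.93 CPM in KO libraries (adjusted p = 0.00957), and Tcf7 4.70 and 8.58 CPM (adjusted p = 0.0185, edgeR). Of the genes of the signalling chains of the T cell receptor complex, Cd247 rose 2.47-fold (adjusted p = 0.00955, called in all 14 alternatives) and Cd3g 4.49-fold (0.0118, edgeR). Cd3e (0.141 and 0.342 CPM) and Cd3d (1.17 and 2.61 CPM) did not pass (adjusted p = 0.152 and 0.127, edgeR). These 6 genes were named after their values were seen, and 0 of the 15 markers were at 0 in any library. The count of T cell markers higher was 5 without KO_339, 4 without KO_345 and 2 with the neutrophil covariate. Stem cell markers, which share the Kit gate, were 10 higher and 0 lower of 15, with summed levels of 220 to 240 CPM in WT and 291 to 413 CPM in KO libraries. They were 6 higher and 0 lower without KO_339, 6 and 1 without KO_345 and 3 and 0 with the neutrophil covariate. Myeloid progenitor markers were 1 higher and 10 lower of 13, with sums of 17067 to 22904 and 8802 to 10759 CPM, and 0 and 4 with the neutrophil covariate. Mature B cell markers were 1 higher and 0 lower of 8, with a median log2 change of 0.66, and 6 of the 8 are also in another list. Their sums overlapped (262 to 323 CPM in WT and 232 to 273 CPM in KO libraries). Their mean log2 CPM was higher in every KO library (1.98, 1.42 and 1.75 in WT, 2.50, 2.11 and 2.79 in KO). Plasma cell markers were 2 higher and 1 lower of 8, natural killer and innate lymphoid markers 6 and 1 of 13, erythroid and megakaryocyte markers 3 and 1 of 12, and stroma and endothelium markers 4 and 0 of 9. Over the 6 fits without 1 library the counts higher ranged from 1 to 3 for mature B cell markers, 0 to 4 for plasma cell, 1 to 9 for natural killer and innate lymphoid, 3 to 5 for erythroid and megakaryocyte and 1 to 4 for stroma markers. The part of these cells in the levels of Notch1, Ly6d and the pathway genes was not tested.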

How the data were processed

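The values the authors deposited are raw read counts for each symbol, with each mouse as a column and no normalization. Per the submitters' processing notes, FastQC, Trimmomatic, STAR, HTSeq and build mm10 were used. The sources used here do not state versions, annotation, strand setting or the rule for reads with several matches. Per the labels' protocols, libraries were strand-specific, made with an mRNA kit, each from 1 mouse, so p-values measure the spread between mice. Columns of other samples numbered 0.

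Groups came from the sample titles. The test was that of edgeR 4.0.16, run in R 4.3.3 (filterByExpr with minimum count 10 and total 15, TMM, glmQLFit with robust estimation, glmQLFTest), with Benjamini-Hochberg adjustment over 15742 genes and a threshold of 0.05. The fit was also run on simulated counts with the same spread in both groups. That setting lacks the wider WT spread seen here, so no conclusion is drawn from it. Log2 CPM used a prior count of 2. DESeq2 1.42.0, limma-voom 3.58.1, other filters, scalings, covariates and single libraries left out were alternatives (14 in all), and a genotype by sex fit was added later. Positions and exon lengths are from GENCODE on GRCm38 (22739 symbols matched directly, 934 by synonym). The members and the gene lists were chosen with earlier results of these data known. Named genes are the 10 members, up to 4 called genes with the lowest adjusted p per pathway list, and the 3 profiles nearest to Flt3 and Cd79a, of which 1 is not reported here. Further genes, among them the checks Cpsf3l and Kit, Vpreb1, Igll1, Rag2, Siglech, Ly6c2, single Notch targets and T cell genes, were named outside that rule after their values were seen. With totals of 124074531 reads or more per library, the lowest count of a member was 63 (Pax5 in WT_343).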

Additional observations from a re-analysis of the deposited data

How the results depend on the processing

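The count of members called higher was 2 in the reported fit, in 5 of 8 alternative fits on all libraries, 1 with no low-count filter and with sex as a covariate, and 0 with the neutrophil level as a covariate. It ranged from 0 to 6 when 1 library was left out, with 6 only without WT_341. The count called lower was 0 in all 14 alternatives. With the neutrophil covariate the log2 changes turned to -0.87 for Il7r, -1.07 for Dntt, -2.04 for Rag1, -0.84 for Ebf1, -0.65 for Pax5 and -0.51 for Cd79a. The log2 change of Flt3 turned to 0.036 with upper-quartile factors. Leaving out single libraries gave log2 changes from -0.24 to 0.13 for Flt3, from -0.018 to 1.38 for Dntt and from -0.41 to 2.39 for Rag1. The values for males, from the fit added after the data were seen, set KO_339 and KO_340 against WT_341 alone. These log2 changes were -0.53 for Il7r, -0.34 for Dntt, -1.30 for Rag1, -0.47 for Ebf1, -0.32 for Pax5 and -0.49 for Cd79a. Over all tested genes the calls, 2520 higher and 3139 lower, were 556 and 949 with the neutrophil covariate, 3573 and 4306 without WT_341, 3458 and 1931 with upper-quartile factors, 1039 and 1263 without KO_339, 1652 and 1664 without KO_340, 1321 and 1645 without KO_345, 1714 and 2430 without WT_343 and 1430 and 1840 without WT_344. The list counts that moved with single libraries, the neutrophil covariate or scaling stand beside the pathway lists. The causes of these shifts were not tested. With 3 mice per group and a WT spread of up to 53.5-fold, differences of the early B lineage genes were not resolved.
No paired analysis was possible because the mouse numbers of the WT and KO groups are not shared.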
